A study of Solanum pimpinellifolium and Solanum chilense with 12 samples.

Results

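Clade A protein phosphatases 2C (PP2Cs) are the phosphatases that keep abscisic acid (ABA) signalling switched off. In the absence of ABA they bind SnRK2 protein kinases and hold them in the dephosphorylated, inactive form. When a PYR/PYL receptor binds ABA, the receptor docks on the PP2C and blocks its active site, the SnRK2 kinases become active, and they phosphorylate b-ZIP transcription factors of ABA-responsive genes. In Arabidopsis, ABA itself raises the transcripts of many clade A PP2C genes, so these transcripts serve as a readout of ABA action as well as brakes on it. The 8 genes described here are Solyc03g121880, Solyc03g096670, Solyc06g076400, Solyc05g052980, Solyc07g040990, Solyc08g062650, Solyc03g007230 and Solyc06g051940. They were taken by gene ID from the 34725 genes listed in the deposited expression table, by a rule that uses no measured value. Their place in clade A comes with the list of IDs. The sources used here pair none of the 8 IDs with a description, so the family was not checked by sequence and roles particular to single members are not given.

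RNA-seq was performed on styles, stigmas included, of 2 wild tomato species. SIP libraries came from self-incompatible (SI) S. chilense LA0130 at 24 h after self-pollination, and SIUP libraries from its unpollinated styles. SCP libraries came from self-compatible (SC) S. pimpinellifolium LA1585 at 24 h after self-pollination, and SCUP libraries from its unpollinated styles. Each group had 3 libraries, 12 in all, and no mutant or chemical treatment was part of the design. The study calls the 3 libraries of a group biological replicates, but the sources do not say whether they came from separate plants, so a p-value here speaks only of the spread among these libraries, which may be technical. Pollinated styles can also hold RNA of pollen and pollen tubes. Only 1 gene, Solyc10g007270, was followed as a marker of pollen; it was taken as such from general knowledge, and no source used here annotates its ID. Markers of style tissue were not checked here. In whole styles, fewer cells of a type and less RNA per cell cannot be told apart.

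Levels are given as RPKM, the reads of a gene scaled by its exon length in kilobases and by the mapped reads of the library. The scaling of the values implies library totals of 10174285 to 11330123 in SIP, 11650219 to 11933637 in SIUP, 12926252 to 13773943 in SCP and 13397028 to 14499209 in SCUP. In every SI library the implied total exceeds the mapped read pairs that the study lists. These totals are therefore not plain counts of reads on genes. Both species were aligned to the tomato reference genome, so levels were compared within a species and only the responses were compared between species. The study reports a smaller share of read pairs mapped in SI than in SC, which limits the comparison of responses too. In a principal component analysis of each species, the first component separated P from UP libraries, with 51.92% of the variance in SI and 52.53% in SC. On it, the SIP libraries stood at 30.66 to 40.54, against -11.38 in SIUP1, -55.41 in SIUP2 and -44.35 in SIUP3, so SIUP1 lay between the groups. The second SC component, with 26.39% of the variance, set SCP1 apart at -63.76, against 32.42 in SCP2 and 32.09 in SCP3.

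All 8 PP2C genes were detected at 1 RPKM or more in all 12 libraries, from 1.17 to 515 RPKM, and none was removed by the filter on low values. Solyc03g121880 was the most abundant PP2C transcript per unit length in every library. It averaged 399 ± 70.9 RPKM in SIP, 454 ± 63.1 in SIUP, 391 ± 45.2 in SCP and 395 ± 118 in SCUP (SD, n = 3 each), above at least 98.86% of all genes in each group. Its level was 6.45 times that of the second member in SIP, 4.17 times in SIUP, 2.96 times in SCP and 2.95 times in SCUP. The RPKM values imply lengths of 878 bp for Solyc03g121880, 588 bp for Solyc03g096670 and 2545 bp for Solyc05g052980. These ratios, the shares below and the order of the genes therefore depend on the length divisor. In reads recovered from the RPKM values, Solyc05g052980 exceeded Solyc03g121880 in SCUP2 (5448 against 4837) and SCUP3 (3953 against 3427). It had fewer in every other library. The lowest library for Solyc03g121880 was above the highest library for any other member in every group. It made up 59.85% to 68.92% of the summed RPKM of the 8 genes in SIP libraries, 57.22% to 60.8% in SIUP, 48.96% to 67.31% in SCP and 46.02% to 54.15% in SCUP.

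Below it stood 4 genes of intermediate level, Solyc03g096670, Solyc07g040990, Solyc06g076400 and Solyc05g052980, between 24.6 and 159.8 RPKM in single libraries. In SIP they followed in that order and each was apart from the next, whereas in SIUP Solyc07g040990, Solyc06g076400 and Solyc05g052980 overlapped their neighbours in the order. In SCP Solyc03g096670 was second and apart from the next, while Solyc05g052980 and Solyc07g040990 overlapped and Solyc06g076400 had the lowest mean of the 4. In SCUP Solyc05g052980 was second by its mean, and all 4 genes overlapped their neighbours. Solyc08g062650, Solyc03g007230 and Solyc06g051940 were the 3 lowest in every group. Their order among themselves was not resolved in SIP or SIUP, where neighbours overlapped. Solyc08g062650 was below both others in every SCP and SCUP library, although its SCP range overlapped that of Solyc06g051940. The highest member exceeded the lowest by 167.1 times in SIP, 90.5 times in SIUP, 90.1 times in SCP and 80.6 times in SCUP.

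**Figure D1:**
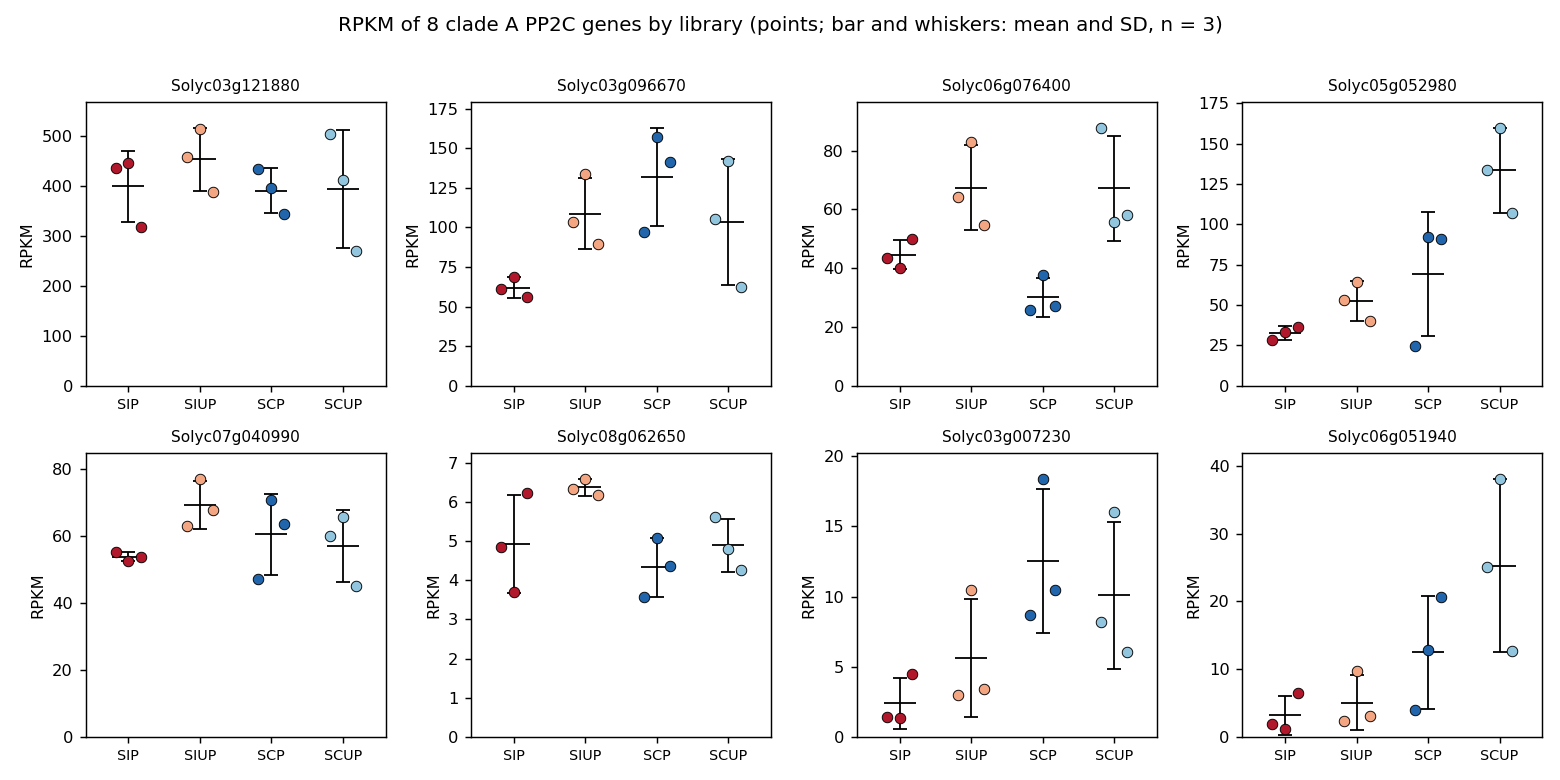
RPKM of each PP2C gene (vertical axis, linear, a scale of its own per gene) in SIP, SIUP, SCP and SCUP; points are libraries 1 to 3 from left to right, and the bar and whiskers are the mean and SD (n = 3). The 3 SIP points lie below all SIUP points for Solyc03g096670, Solyc06g076400, Solyc05g052980 and Solyc07g040990, and the 3 SCP points lie below all SCUP points for Solyc06g076400 and Solyc05g052980.

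The comparison of SIP with SIUP asks how PP2C transcripts in SI styles stood 24 h after self-pollination. No PP2C gene passed the test, although the estimate was negative for all 8, from -1.04 to -0.19 on the log2 scale with a median of -0.61. Among all 18334 genes tested in SI, 62.83% had a negative estimate and the median was -0.11. In 4 of the 8 genes all SIP libraries were below all SIUP libraries, which was so for 20.8% of all genes. The test was limma on log2(RPKM + 0.5) with Benjamini-Hochberg adjustment over all genes and a threshold of 0.05, and it called 3.65% of all genes in either direction. At an unadjusted p under 0.05 it found 4 of the 8 genes, against 26.56% of all genes. An unequal-variance test on RPKM also called 0 of the 8, but it called only 0.0164% of all genes. With voom on read counts recovered from the RPKM values, 0 of the 8 and 4.03% of all genes were called.

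The pollen marker Solyc10g007270 had 591, 1086 and 606 RPKM in SIP, against 488, 159.6 and 160.7 RPKM in SIUP. All SIP libraries were higher, but the log2 fold change of 1.65 did not pass (standard error 0.47, limma adjusted p = 0.0942, range 0.00999 to 0.334). In SC its groups overlapped, with 1860, 2061 and 2213 RPKM in SCP, against 1275, 3274 and 1797 RPKM in SCUP (log2 fold change 0.06, limma adjusted p = 0.942). It was thus abundant in unpollinated styles too, and the part of pollen RNA in the PP2C results was not tested.

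Solyc03g096670 came closest to the threshold in SI. It had 61.3, 68.7 and 55.8 RPKM in the SIP libraries, against 103, 134 and 89.6 RPKM in the SIUP libraries. All SIP libraries were lower than any SIUP library, and the means stood at a ratio of 0.570. The log2 fold change was -0.79 (standard error 0.17, 95% interval -1.19 to -0.40) with an adjusted p of 0.0532 by limma (range over 17 alternatives 0.0442 to 0.3203). The gene passed only when SIUP1 was left out, with a log2 fold change of -0.82 and an adjusted p of 0.0442.

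Solyc05g052980 had 28.4, 33.2 and 36.5 RPKM in SIP, against 52.9, 64.4 and 40.2 RPKM in SIUP. Its groups did not overlap, but SIP3 and SIUP3 were close to each other. In the fit this gave a log2 fold change of -0.66 (standard error 0.19, limma adjusted p = 0.0992, range 0.0881 to 0.399). Solyc06g076400 had 43.6, 40.1 and 49.9 RPKM in SIP, against 64.4, 83.1 and 54.8 RPKM in SIUP. Here too every SIP library was the lower, with SIP3 and SIUP3 nearest. Its log2 fold change was -0.58 (standard error 0.17, limma adjusted p = 0.104, range 0.0946 to 0.356).

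Solyc07g040990 had the most even SIP values of the PP2C genes, at 55.1, 52.6 and 53.8 RPKM, against 63.0, 77.2 and 67.7 RPKM in SIUP. The SIP libraries differed from each other by a coefficient of variation of 2.39% and were all below SIUP. A log2 fold change of -0.36 was estimated (standard error 0.11, 95% interval -0.62 to -0.10, limma adjusted p = 0.109, range 0.0613 to 0.321).

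The most abundant gene, Solyc03g121880, had 435, 445 and 318 RPKM in SIP, against 458, 515 and 389 RPKM in SIUP. The groups overlapped, library 3 being the lowest of both. The log2 fold change was -0.19 with a 95% interval of -0.60 to 0.22 (limma adjusted p = 0.510), so a 2-fold fall of this transcript lies outside the interval and no change lies inside it.

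The 3 scarce members overlapped between SIP and SIUP. Solyc08g062650 had 4.86, 3.70 and 6.22 RPKM in SIP, against the narrow range of 6.33, 6.60 and 6.18 RPKM in SIUP (log2 fold change -0.37, limma adjusted p = 0.287). Solyc03g007230 had 1.39, 1.31 and 4.47 RPKM in SIP, against 2.95, 10.4 and 3.39 RPKM in SIUP, and its estimate of -1.04 had a standard error of 0.56 (limma adjusted p = 0.280). Solyc06g051940 had 1.82, 1.17 and 6.47 RPKM in SIP, against 2.28, 9.70 and 3.07 RPKM in SIUP, an estimate of -0.63 with a standard error of 0.66 (limma adjusted p = 0.567). In the last 2 genes SIP3 and SIUP2 stood far above the other libraries of their groups. They rested on 21 to 74 and 28 to 152 reads per SIP library, and their 95% intervals of -2.36 to 0.29 and -2.19 to 0.93 reach from a strong fall to a rise.

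The comparison of SCP with SCUP asks the same of SC styles. There Solyc06g076400 fell, and the other 7 genes did not pass the test. The 8 estimates were split, 4 negative and 4 positive, from -1.15 to 0.40 with a median of -0.07, against a median of -0.12 and 61.34% negative among all 18913 genes tested in SC. By the same limma test, 6.89% of all genes were called in either direction, 2.23% as lower and 4.66% as higher in SCP, and with 8 genes a single call as lower is no result about the PP2Cs as a group. At an unadjusted p under 0.05 it found 1 of the 8, against 27.67% of all genes. In 2 of the 8 genes all SCP libraries were below all SCUP libraries, which was so for 23.1% of all genes.

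Solyc06g076400 had 25.6, 37.7 and 27.1 RPKM in the SCP libraries, against 87.8, 55.8 and 58.2 RPKM in the SCUP libraries. Every SCP library was lower than every SCUP library, and SCUP1 was the highest of all. It averaged 30.1 ± 6.62 RPKM in SCP and 67.3 ± 17.9 RPKM in SCUP (SD, n = 3 each), a ratio of 0.448. The log2 fold change was -1.14 (standard error 0.24, 95% interval -1.71 to -0.56) with a limma adjusted p of 0.0400 (range over 17 alternatives 0.00605 to 0.299). The call was lost when any single library was left out, with adjusted p-values of 0.0795 without SCP1, 0.0665 without SCP2, 0.102 without SCP3, 0.122 without SCUP1, 0.0523 without SCUP2 and 0.121 without SCUP3, while the log2 fold change stayed between -1.31 and -0.93. Neither the unequal-variance test (0.299) nor the fit without the filter on low values (0.0543) called the gene, while voom on the recovered reads did (0.0398). Over all genes the unequal-variance test called 0.00529% and voom 6.47%.

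Solyc05g052980 had 24.6, 92.4 and 90.8 RPKM in SCP, against 134, 159.8 and 107 RPKM in SCUP. All SCP libraries were lower, but SCP1 was far below SCP2 and SCP3. Its log2 fold change of -1.15 had a standard error of 0.51 (limma adjusted p = 0.196, range 0.0793 to 0.365). Without SCP1 the estimate was -0.52, with an adjusted p of 0.179.

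Solyc06g051940 had 3.98, 12.9 and 20.6 RPKM in SCP, against 25.1, 38.2 and 12.7 RPKM in SCUP. SCUP3 was below both SCP2 and SCP3, so the groups overlapped, and SCP1 was again the lowest. Its log2 fold change was -1.12 with a standard error of 0.62 (limma adjusted p = 0.288). Solyc08g062650, with 3.57, 5.08 and 4.36 RPKM in SCP, against 5.61, 4.81 and 4.27 RPKM in SCUP, had a log2 fold change of -0.16 (95% interval -0.66 to 0.33, limma adjusted p = 0.667).

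The other 4 genes had positive estimates in SC and overlapping groups. Solyc03g096670 had 97.1, 157 and 141 RPKM in SCP, against 106, 142 and 62.4 RPKM in SCUP. The low SCUP3 library lay below the rest, and the log2 fold change of 0.40 had a standard error of 0.33 (limma adjusted p = 0.483). Solyc03g007230 had 8.72, 18.4 and 10.5 RPKM in SCP, against 8.21, 16.0 and 6.04 RPKM in SCUP, with library 2 the highest of each group (log2 fold change 0.34, limma adjusted p = 0.639). Solyc07g040990 had 47.0, 70.9 and 63.5 RPKM in SCP, against 60.1, 65.8 and 45.0 RPKM in SCUP (log2 fold change 0.08, 95% interval -0.44 to 0.61, limma adjusted p = 0.853). The most abundant gene, Solyc03g121880, had 434, 395 and 344 RPKM in SCP, against 503, 411 and 269 RPKM in SCUP. The SCUP libraries spanned all SCP libraries, and the log2 fold change of 0.03 had a 95% interval of -0.59 to 0.65 (limma adjusted p = 0.963).

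**Figure D2:**
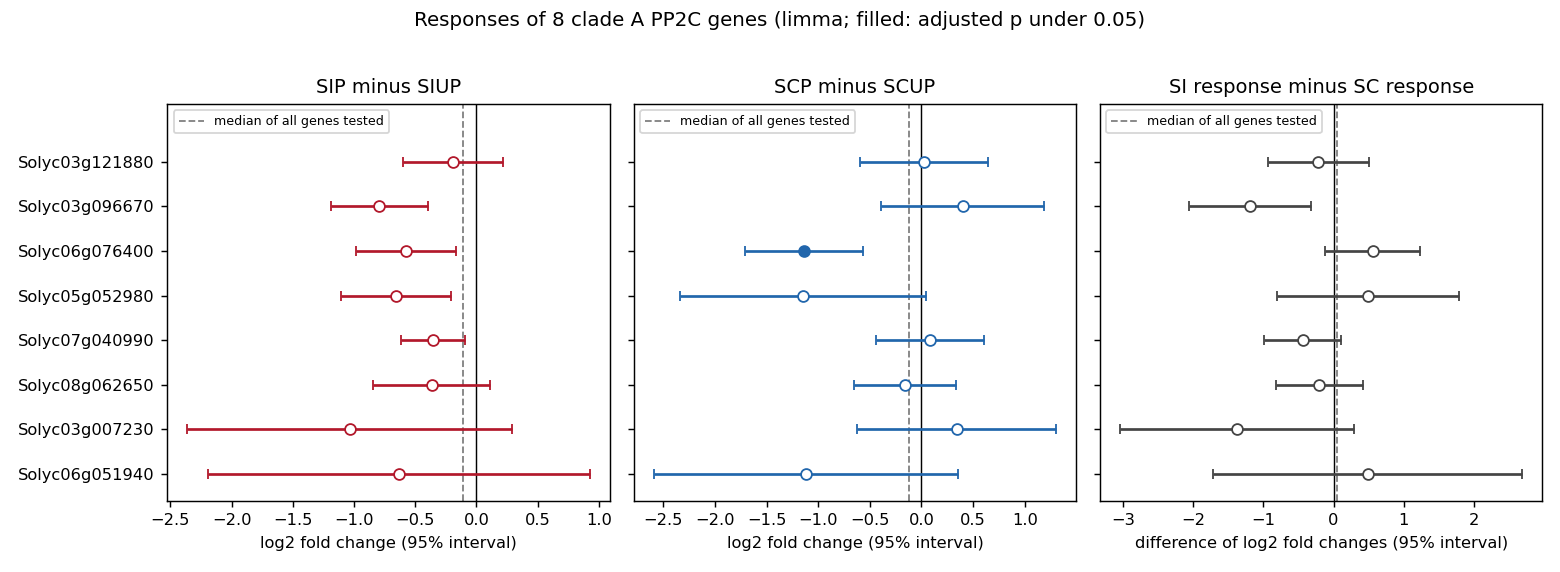
Log2 fold change of each PP2C gene with its 95% interval from limma, for SIP minus SIUP (left), SCP minus SCUP (middle) and the SI response minus the SC response (right); the dashed line is the median of all genes tested and a filled point marks an adjusted p under 0.05. All 8 SI estimates lie below 0, the SC estimates lie on both sides of 0, and the only filled point is Solyc06g076400 in SC at -1.14.

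The difference between the responses, SIP minus SIUP less SCP minus SCUP, was tested for each gene in a fit of all 12 libraries. It passed for 0 of the 8 PP2C genes by limma, by the unequal-variance test and by voom on the recovered reads, where limma called 1.04% of all 20277 genes tested, the unequal-variance test 0.0395% and voom 0.138%. Only Solyc03g096670 had an unadjusted p under 0.05, against 12.86% of all genes. Its estimates were -0.79 in SI and 0.40 in SC, a difference of -1.19 with a standard error of 0.40 and a 95% interval of -2.07 to -0.32 (limma adjusted p = 0.232, range over 22 alternatives 0.0921 to 0.636). The difference was negative for 5 genes and positive for 3, with a median of -0.21, against 0.05 over all genes.

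Solyc06g076400, which was lower after self-pollination in every library of both species, had estimates of -0.58 in SI and -1.14 in SC. The difference of 0.56 did not pass, and its 95% interval ran from negative to positive, -0.12 to 1.24 (standard error 0.31, limma adjusted p = 0.4997). A call in SC and none in SI therefore does not show that the responses differ. For Solyc07g040990 the estimates were -0.36 in SI and 0.08 in SC, a difference of -0.44 with a 95% interval of -0.99 to 0.11 (limma adjusted p = 0.515). For Solyc03g007230 they were -1.04 in SI and 0.34 in SC, and the difference of -1.38 had a standard error of 0.76 (limma adjusted p = 0.496). For Solyc05g052980 the difference was 0.49 with all libraries and -0.13 without SCP1 (limma adjusted p = 0.805 and 0.897, range 0.609 to 0.940). The smallest differences were those of Solyc08g062650 at -0.20 (95% interval -0.83 to 0.42) and Solyc03g121880 at -0.22 (95% interval -0.94 to 0.50). Solyc06g051940 had the widest interval, -1.72 to 2.69 around 0.49.

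Summed over the 8 genes, PP2C transcript stood at 603 ± 62.8 RPKM in SIP and 769 ± 124 RPKM in SIUP, and at 712 ± 73.3 RPKM in SCP and 796 ± 201 RPKM in SCUP (SD, n = 3 each). The summed levels ran between 531 and 646 RPKM in SIP libraries, against 654 and 900 RPKM in SIUP, without overlap. They ran between 644 and 790 RPKM in SCP, against 565 and 930 RPKM in SCUP, where the SCUP range enclosed that of SCP. Solyc03g121880, whose groups overlapped in both species, was the largest part of each sum.

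Single libraries moved several PP2C genes together. SIUP2 was the highest SIUP library for 8 of 8 genes, and for 42.41% of all genes tested in SI. Without it the median estimate of the 8 genes in SI was -0.38, against -0.09 over all genes, and all 8 estimates remained negative. In SC, SCP1 was the lowest SCP library for 7 of 8 genes (49.43% of all genes) and SCUP3 the lowest SCUP library for 7 of 8 (22.84% of all genes). Without SCUP3, 6 of the 8 SC estimates were negative and their median was -0.24, and without SCP1 5 were negative and the median was -0.05.

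**Figure D3:**
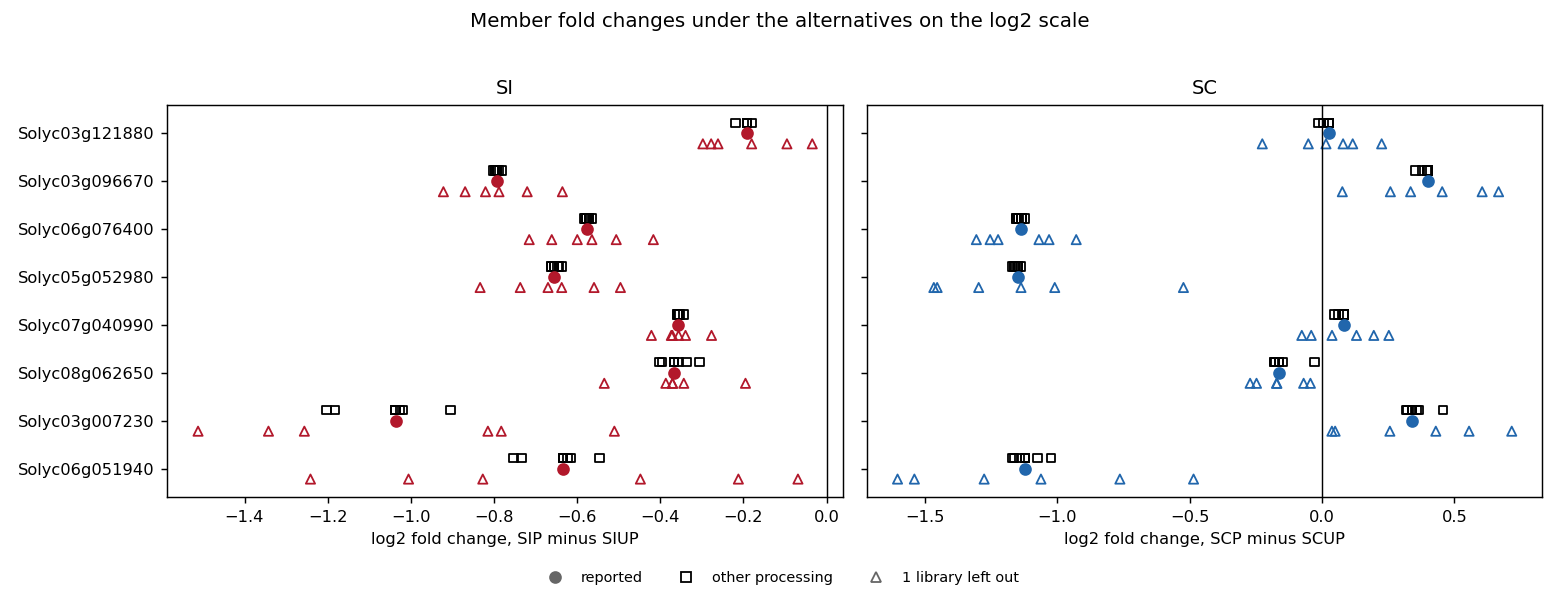
Log2 fold changes of the PP2C genes in SI (left) and SC (right) as reported (filled), with other processing on the log2 scale (squares) and with 1 library left out in turn (triangles). The SI values stay below 0 in all of these, Solyc06g076400 in SC stays between -1.31 and -0.93, and Solyc03g121880 and Solyc07g040990 in SC fall on both sides of 0.

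Across the 12 libraries, with each gene centred within its species, the PP2C genes did not share a single pattern. The closest pair was Solyc03g096670 and Solyc07g040990 (Pearson's r of log2 values 0.92), followed by Solyc05g052980 and Solyc06g051940 (0.80), and the least alike were Solyc03g121880 and Solyc06g051940 (0.01). The 12 libraries differ in depth and in pollination state, so each r includes the change between UP and P libraries. Among 20269 other genes above the filter, the highest r was 0.97 for Solyc06g076400 with Solyc03g112550, 0.97 for Solyc05g052980 with Solyc03g078080, and 0.97 for Solyc06g051940 with Solyc03g065250. It was 0.96 for Solyc08g062650 with Solyc09g065240, 0.95 for Solyc07g040990 with Solyc01g087470, and 0.94 for Solyc03g096670 with Solyc06g074940. The lowest of these best matches were 0.92 for Solyc03g007230 with Solyc01g100330 and 0.87 for Solyc03g121880 with Solyc04g082160. Each best match is the largest of 20269 values of r over 12 libraries. Its size is raised by that selection, and no test was made of it.

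Beside the PP2Cs, 7 genes of ABA synthesis, breakdown and signalling were followed. Their IDs and names are those the study gives, and it chose them on these libraries, so their directions are not independent evidence. In SI 2 of the 5 above the filter rose and none fell, where 2.5% of all genes were called higher. In SC 2 of 7 rose and none fell, where 4.66% of all genes were called higher. Their median log2 fold change was 0.02 in SI and 0.80 in SC. The study called genes at an unadjusted p under 0.05 with at least a 2-fold change, not at the adjusted threshold used here. At an unadjusted p under 0.05, limma found 4 of the 5 in SI, against 26.56% of all genes. In SC it found 5 of the 7, against 27.67%.

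Genes of ABA metabolism set the amount of hormone that reaches the receptors, and 1 of them rose in each species. Solyc12g056600, for xanthoxin dehydrogenase, an enzyme of ABA synthesis, had 238, 308 and 176 RPKM in SCP, against 10.8, 25.1 and 17.7 RPKM in SCUP. It rose in SC by 3.76 on the log2 scale (standard error 0.34, limma adjusted p = 0.00448), and in SI it was below the filter, at 0.0807 to 1.31 RPKM in SIP and 0 to 0.230 RPKM in SIUP. Solyc08g005610, for the ABA 8′-hydroxylase CYP707A2 of ABA breakdown, had 85.6, 76.9 and 51.4 RPKM in SIP, against 13.0, 11.5 and 16.3 RPKM in SIUP. All SIP libraries were higher, and the log2 fold change was 2.33 (standard error 0.22, limma adjusted p = 0.00591). In SC its values overlapped, with 70.9 to 359.5 RPKM in SCP and 63.9 to 132 RPKM in SCUP (log2 fold change 0.80, limma adjusted p = 0.411). The difference between its responses, 1.53, did not pass (limma adjusted p = 0.375) and was called in 0 of 22 alternatives. A call in SI and none in SC therefore does not show that its responses differ. Beside these changes, the PP2C genes in the same libraries had the values given above, with no call in SI and a fall of Solyc06g076400 alone in SC.

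Among the receptors, which act on the PP2Cs, the PYL6-like gene Solyc06g050500 had 18.1, 30.7 and 25.5 RPKM in SCP, against 5.34, 6.62 and 6.87 RPKM in SCUP. It rose in SC by 1.87 (standard error 0.23, limma adjusted p = 0.00957), and in SI its SIP and SIUP values overlapped between 1.41 and 2.69 RPKM. The PYL8-like gene Solyc03g007310 did not pass in SI (log2 fold change -1.11, limma adjusted p = 0.119) or in SC (0.59, 0.555). Of the SnRK2 kinases, which the PP2Cs inactivate, the SAPK3-like gene Solyc08g077780 had 42.2, 30.4 and 30.2 RPKM in SIP, against 17.6, 14.1 and 14.4 RPKM in SIUP.

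Solyc08g077780 rose in SI by 1.12 (standard error 0.17, limma adjusted p = 0.0236, range 0.0139 to 0.289). It was called in 10 of 17 alternatives and lost without SIP1 (0.0714), SIP2 (0.0530), SIP3 (0.0538), SIUP2 (0.0822) or SIUP3 (0.112). The SI call was also lost with all 12 libraries in the fit (0.07505) and in the unequal-variance test (0.289). In SC it had 149, 72.6 and 59.0 RPKM in SCP, against 34.7, 38.1 and 25.3 RPKM in SCUP, again with no overlap. The SC estimate of 1.41 did not pass (limma adjusted p = 0.0633, range 0.0101 to 0.406). It passed in 2 of 17 alternatives, among them the fit of all 12 libraries (0.0101). That fit called 18.1% of all genes in SC, against 6.89% in the fit of SC alone. The responses differed by -0.29 with a 95% interval of -1.22 to 0.65. The SAPK7-like gene Solyc05g056550 was below the filter in SI and did not pass in SC (-0.78, limma adjusted p = 0.101). The b-ZIP factor Solyc10g076920, of the class that SnRK2 kinases phosphorylate, had all P libraries below all UP libraries in both species. This was so for 20.8% of all genes in SI and 23.1% in SC. In SC the gene had 0.256 to 0.817 RPKM in SCP, against 1.30 to 1.35 RPKM in SCUP. It reached the filter in SC only through the SCUP libraries, so its SC values lie near the floor. It did not pass in SI (-0.83, limma adjusted p = 0.162) or in SC (-0.85, 0.114).

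**Figure D4:**
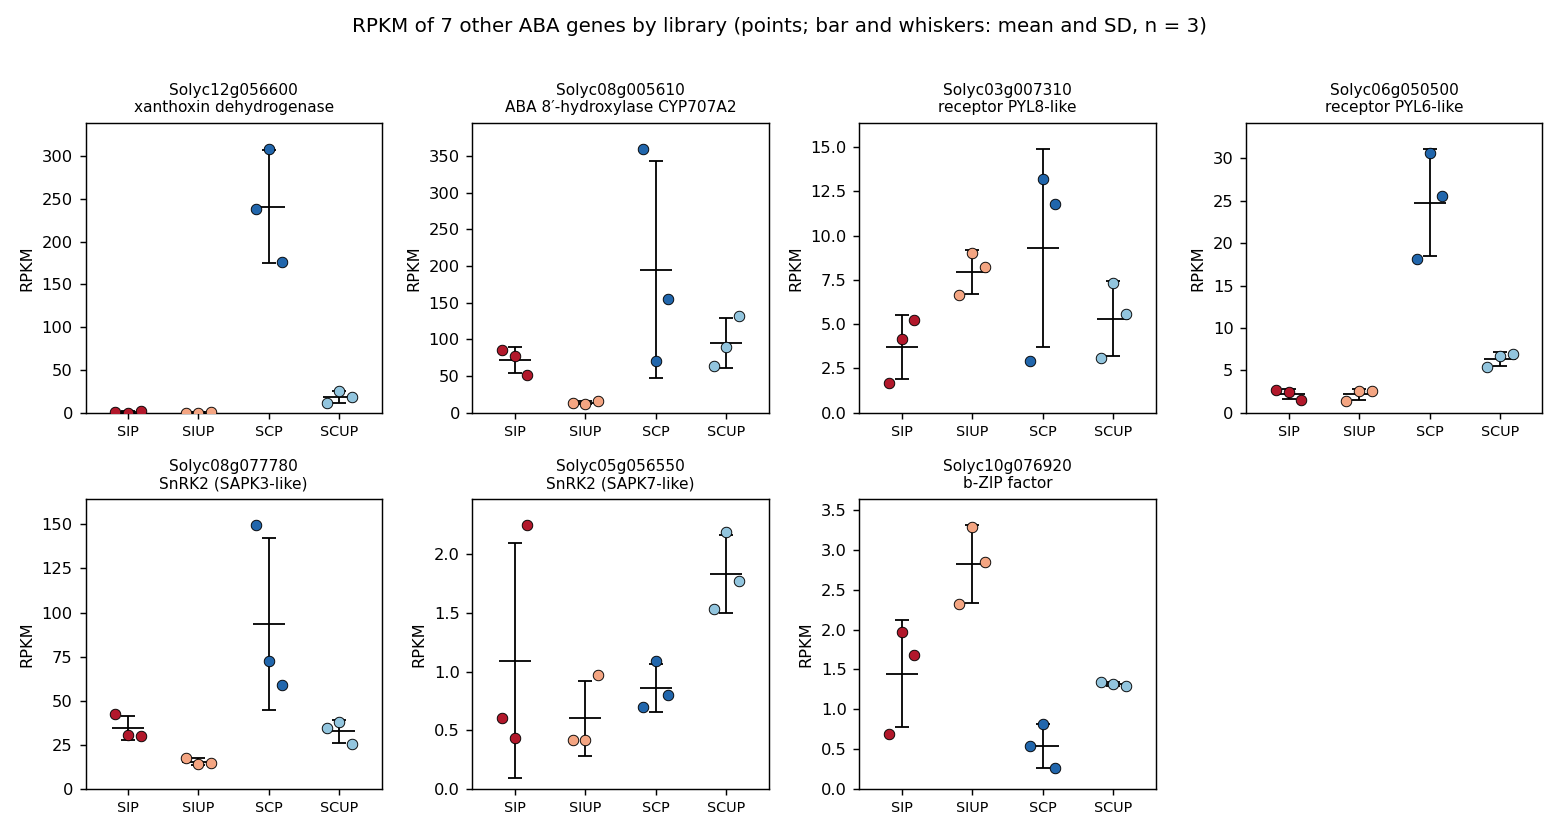
RPKM of the 7 other ABA genes (vertical axis, linear, a scale of its own per gene) in SIP, SIUP, SCP and SCUP; points are libraries 1 to 3 from left to right, and the bar and whiskers are the mean and SD (n = 3). All SIP points lie above all SIUP points for Solyc08g005610 and Solyc08g077780, and all SCP points lie above all SCUP points for Solyc12g056600, Solyc06g050500 and Solyc08g077780.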

How the data were processed

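Total RNA of each style sample was used for poly-A selected libraries and paired-end sequencing. The RPKM values were deposited by the authors, who filtered reads with Trimmomatic 0.32, ran TopHat2 against the tomato genome, counted with HT-seq and scaled by gene length and library. Builds of genome and annotation, and how multiply matching reads were handled, were not given in the sources used here. Reads shared between similar PP2C genes are therefore a limit. The authors' own fold changes and p-values are also deposited and were not used. Of 34725 genes, 7 with error codes and 1 line of totals were left out.

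RPKM values were taken to the log2 scale after adding 0.5. Genes had to reach 1 RPKM in 3 or more of the fitted libraries. Fold changes on this scale understate those of scarce genes. SIP minus SIUP and SCP minus SCUP were fitted within a species with limma 3.58.1 in R 4.3.3 (empirical Bayes with intensity trend), and the difference over all 12 libraries. P-values were adjusted by Benjamini-Hochberg over all genes tested, with a threshold of 0.05. This replaces the count test that the study's methods name, since the values are not counts. Whole reads were recovered from the RPKM values: all 26562 genes above 0 in at least 2 libraries were whole multiples of a step (tolerance 1e-06), and voom was run on these reads, calling 739 genes in SI, 1224 in SC and 28 for the difference. The fits were tested on simulated data. Python 3.11.15 (numpy 2.4.6, pandas 2.3.3, matplotlib 3.10.9) served for all other values and the plots.

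Results were recomputed with 17 alternatives per species and 22 for the difference. These changed the scaling (upper quartile, quantile), the filter (none, 5 RPKM), the pseudocount (0.1, 1) or the test (limma with no trend, unequal variances with Benjamini-Hochberg adjustment, voom), added a replicate block, fitted both species together, or left out a library. The rule for the 8 genes uses IDs alone, but the genes, the lists and the tests were chosen with earlier results of these data known. All 8 members are named, with 1 pollen marker, the 7 ABA genes that the study names by ID and, for each member, the gene with the highest Pearson's r. Further ABA lists and sequences were not analysed here, since the reference table used holds no matching IDs.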

Additional observations from a re-analysis of the deposited data

Results flagged for a closer look

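No PP2C gene passed the test of the difference between the species. Among the other ABA genes, the SI response was lower than the SC response for Solyc12g056600, by -2.89 on the log2 scale (standard error 0.58, limma adjusted p = 0.0428, range over 22 alternatives 0.0117 to 0.691). Its SI libraries held 0 to 1.31 RPKM, so the size of this difference moved with the pseudocount, to -2.07 at 0.1 (adjusted p = 0.416) and -3.15 at 1 (0.0117). The SI response was also lower for Solyc06g050500, by -1.85 (standard error 0.38, limma adjusted p = 0.0458, range 0.0245 to 0.577). Each was called in 6 of 22 alternatives. With a library left out, Solyc12g056600 stayed called only without SCUP2 or SIP3, and Solyc06g050500 only without SCP1 or SIUP1. For the difference, 2 of the 7 ABA genes were called, against 1.04% of all genes. The study chose the 7 genes on these libraries, so these directions are not independent evidence.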

How the results depend on the processing

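The number of PP2C genes called in SC was 1, and 0 with the unequal-variance test on RPKM, without the filter and with a replicate block, and 0 to 0 with a library left out. In SI it was 0, with a range of 0 to 1 over the fits with a library left out (1 without SIUP1, Solyc03g096670), and 0 in the other alternatives. It was 0 for the difference in all 22. Library numbers did not pair the samples: deviations of same-numbered P and UP libraries correlated at 0.16, -0.21 and 0.06 in SI and 0.36, 0.20 and -0.07 in SC, and not every library correlated best with its own number. The replicate block called 126 genes in SI, 1099 in SC and 125 for the difference, against 670, 1303 and 210 without it, and 0 PP2C genes in each. With a library left out, 94 to 2311 genes were called in SI, 256 to 1213 in SC and 32 to 389 for the difference. All 12 libraries in a fit called 3674 genes in SC, the unequal-variance test 3 in SI, 1 in SC and 8 for the difference, and for the difference a filter of 5 RPKM called 139, a pseudocount of 0.1 107 and voom 28. The estimates changed sign in 0 of 134 PP2C values over the alternatives in SI, 6 of 135 in SC and 4 of 176 for the difference. Solyc03g121880 in SC was -0.014 with quantile normalization, -3.75 RPKM in the unequal-variance test and -0.23 to 0.23 with a library left out. With a library left out, Solyc07g040990 in SC ran from -0.076 to 0.25, and the differences from -0.42 to 0.034 for Solyc03g121880, -0.13 to 0.81 for Solyc05g052980 and -0.15 to 1.05 for Solyc06g051940. Among the other ABA genes, such fits gave -0.21 to 0.23 for Solyc06g050500 in SI, and differences of -0.56 to 0.11 for Solyc08g077780 and -0.19 to 0.34 for Solyc10g076920, which was also -0.065 with a pseudocount of 1 and -0.591 RPKM in the unequal-variance test. That test put the difference of Solyc08g005610 at -42.5 RPKM. The causes of the other changes were not tested. The thinnest counts were those of Solyc03g007230 with 21 to 353 reads per library, Solyc08g062650 with 67 to 125 and Solyc06g051940 with 28 to 1076.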
